A study of Mus musculus with 8 samples.

Results

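A set of 6 microRNAs (miRNAs, short RNAs that repress target messenger RNAs) that mark blood vessel lining and connective tissue cells was followed in small RNA libraries of splenic CD8+ T cells. They are mmu-miR-126a-3p, mmu-miR-126a-5p, mmu-miR-143-3p, mmu-miR-145a-5p, mmu-miR-199a-3p and mmu-miR-199a-5p, where mmu stands for mouse and is left out below. They were chosen by name from the deposited table, where these 6 of 1978 mature miRNAs fill 8 rows, 1 per hairpin precursor, and the rows of a miRNA were summed. The libraries came from C57BL/6 mice, an inbred strain, at 2 ages: neonatal mice of 5 to 7 days (n = 4) and adult mice of 12 weeks (n = 4). All cells were taken from the spleen with magnetic beads against CD8a, and no treatment or genetic change is named for either group. Nothing in the labels says whether a library stands for 1 animal or a pool, so the p-values below describe the spread between these libraries, which may be technical. Bead enrichment keeps some cells of other types. In such bulk RNA, fewer cells of a type and less RNA per cell cannot be told apart.

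miRNAs are cut from a hairpin that has a 5′ arm (5p) and a 3′ arm (3p), and bases 2 to 8, the seed, pair with the targets. miR-126 is known as the main miRNA of endothelial cells, where it lies within the gene of the vessel-guiding protein EGFL7 and sharpens the response to VEGF; blood stem cells and platelets hold it too. miR-143 and miR-145a come from neighbouring hairpins and are known for keeping smooth muscle in its contractile state. miR-199a is typical of fibroblasts and other mesenchymal cells. A T cell is not known as a main source of any of them.

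Mature sequences for 3 of the 6 were found in RefSeq (build GRCm38.p6), and they show which reads can be told apart. The seed is in capitals.
miR-126a-3p: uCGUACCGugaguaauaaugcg
miR-199a-3p: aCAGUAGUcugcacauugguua
miR-199a-5p: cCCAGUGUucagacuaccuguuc
Among the 1679 mature miRNAs named in the RefSeq table, no other has the seed of miR-126a-3p. The seed of miR-199a-3p has 1 other holder, miR-199b-3p, whose whole sequence is identical.

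The hairpins of the miR-199 genes show where the identical run of 22 bases, in capitals, recurs.
Mir199a-1: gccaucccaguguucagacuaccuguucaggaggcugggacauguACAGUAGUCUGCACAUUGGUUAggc
Mir199a-2: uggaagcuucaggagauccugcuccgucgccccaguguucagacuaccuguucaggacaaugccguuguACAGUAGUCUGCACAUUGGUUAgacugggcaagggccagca
Mir199b: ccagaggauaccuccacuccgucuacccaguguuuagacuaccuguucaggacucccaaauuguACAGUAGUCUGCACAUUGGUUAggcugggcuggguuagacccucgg
A read of the shared 3p sequence fits all 3 hairpins, and the table divides it among them. The 3 rows held the same value in 8 of 8 libraries, for example 6.33 per hairpin in adult library 1, and their sum was whole to within 0.01. The counts given below for miR-199a-3p, summed over 2 hairpins, are therefore part of 1 pool with miR-199b-3p. That pool held 78, 87, 85 and 98 reads in neonatal libraries 1 to 4. In adult libraries 1 to 4 it held 19, 19, 23 and 61 reads.

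In the mouse genome (GRCm38, the mm10 build of the counts) Mir199a-1 lies on chromosome 9 from 21496495 to 21496564, within introns of Dnm2 on the opposite strand. Mir199a-2 lies on chromosome 1 from 162217814 to 162217923, on the strand of the noncoding gene Dnm3os. It is exonic in 2 of the 3 Dnm3os transcripts that span it and intronic in the other, and the gene Dnm3 runs opposite. Mir199b lies on chromosome 2 from 32318460 to 32318569, within introns of Dnm1 on the opposite strand. Mir126a lies on chromosome 2 from 26591357 to 26591429, on the strand of Egfl7, and is intronic in 8 of the 9 Egfl7 transcripts that span it. Its hairpin is shown with miR-126a-3p in capitals.
Mir126a: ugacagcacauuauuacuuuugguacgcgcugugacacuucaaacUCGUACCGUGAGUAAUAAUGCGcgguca
The opposite strand carries a second hairpin, Mir126b (26591363 to 26591420), whose 58 bases are the reverse complement of part of Mir126a. Its products were at the limit of detection, with summed counts over 4 libraries of 3 (neonatal) and 1 (adult) for miR-126b-3p and 0 and 1 for miR-126b-5p. Nearly all counted reads of this locus were thus assigned to Mir126a.

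Library totals were 1281032 to 2606630 counts, and levels are given as depth-scaled counts (CPM). These follow TMM scaling, which levels libraries by a trimmed mean of their ratios, and on that scale 1 count made 0.357 to 0.971 CPM. Of 375 miRNAs with enough counts, 63.2% passed edgeR's quasi-likelihood test between the ages at an adjusted p (Benjamini-Hochberg) under 0.05. Neonatal libraries were higher for 29.1% and lower for 34.1% of all tested. Higher ones were 46.0% of the changed miRNAs on the TMM scale and 73.2% with library totals, which moved the median log2 fold change of all miRNAs from -0.05 to 0.58. Fold changes are neonatal over adult, relative to the TMM scale. For comparison, miR-150-5p, abundant in mature lymphocytes, ranged from 51274 to 57659 CPM in the neonatal group and from 103616 to 184214 CPM in the adult group. miR-223-3p, which marks myeloid cells and platelets, had 1 to 20 counts per library. Neither of them tells CD8+ T cells from other lymphocytes.

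Of the 6 members, 4 passed the count filter, and miR-126a-3p, miR-126a-5p, miR-143-3p and miR-199a-3p each rose in neonatal cells, by 1.96-fold to 3.4-fold. Among all tested miRNAs 29.1% rose, and 26.4% were higher in neonatal libraries with no overlap between the groups, as were both miR-126a arms and miR-199a-3p. The filter asked for 5.09 CPM, here on library totals, in 4 of the 8 libraries. miR-126a-3p, miR-143-3p and miR-199a-3p reached it in all 8, while miR-126a-5p reached it in the 4 neonatal libraries and in 0 adult ones. It was thus tested only through the group in which it is high, so its call and lack of overlap are a description and add no support to the others. The other 2 members, miR-145a-5p and miR-199a-5p, were near the limit of detection in both groups and were not tested. Together the 6 took 0.0258% to 0.0281% of the counts of neonatal libraries and 0.00529% to 0.0103% of those of adult libraries, so all of them were minor species in these libraries.

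**Figure D1:**
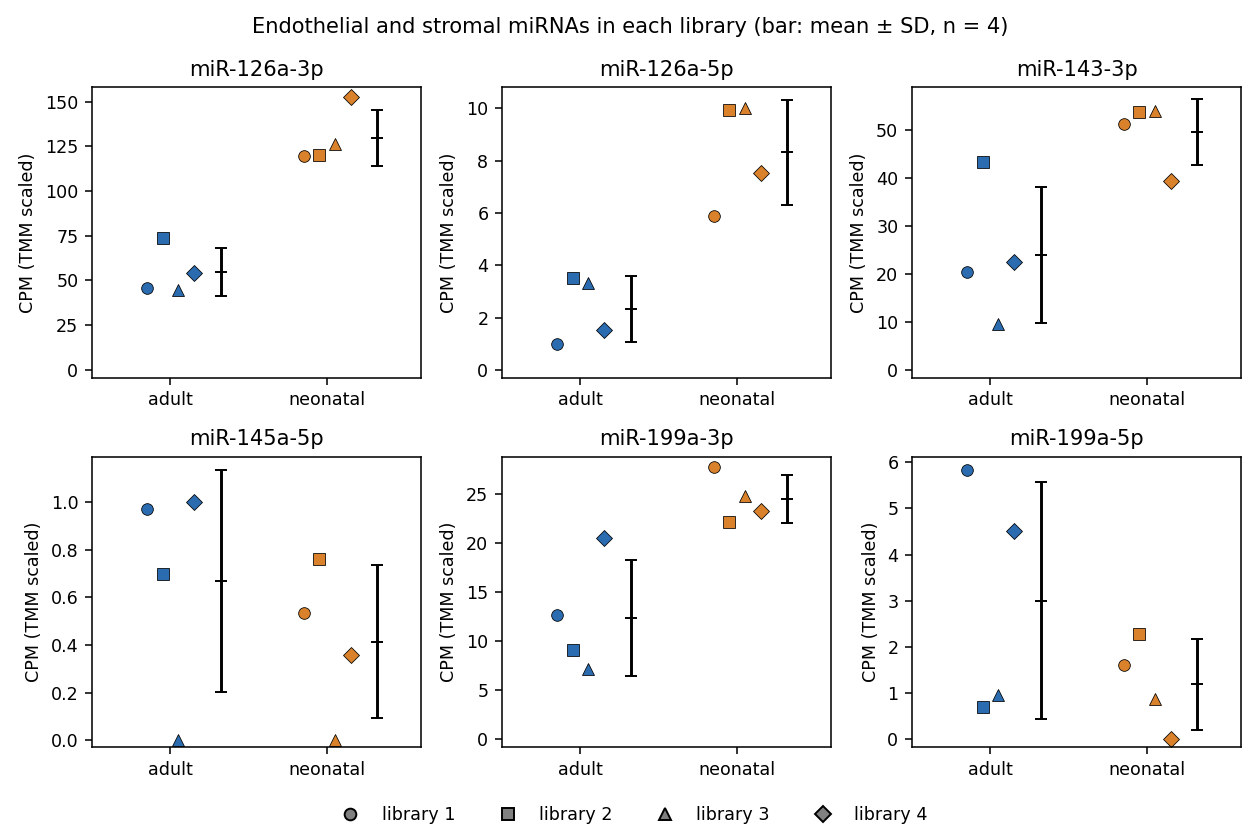
Level of each of the 6 miRNAs in every library, in CPM after TMM scaling, with marker shapes for library numbers and bars for the mean ± SD (n = 4). The groups stand apart for both miR-126a arms and for miR-199a-3p, adult library 2 reaches into the neonatal range for miR-143-3p, and miR-145a-5p and miR-199a-5p stay under 6 CPM.

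miR-126a-3p, the endothelial guide strand, was the most abundant of the 6. It had 224, 316, 290 and 427 counts in neonatal libraries 1 to 4, or 119, 120, 126 and 153 CPM. Adult libraries 1 to 4 had 47, 105, 94 and 108 counts, or 45.6, 73.5, 44.7 and 54.2 CPM. The lowest neonatal library was above the highest adult one. The means were 130 ± 15.6 and 54.5 ± 13.4 CPM (SD, n = 4 each), a log2 fold change of 1.25 ± 0.20 (SE) or 2.38-fold, with an adjusted p of 0.00015 by edgeR. Spread between libraries exceeded counting error in both groups: the coefficient of variation was 12.0% in neonatal and 24.5% in adult libraries, where counting alone gives about 5.64% and 10.6%. By level it ranked 163 of the 375 tested miRNAs, and by fold change 63 from the top.

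miR-126a-5p, the other arm of the same hairpin, was scarce. Neonatal libraries 1 to 4 held 11, 26, 23 and 21 counts (5.87, 9.91, 10.0 and 7.51 CPM) and adult libraries 1, 5, 7 and 3 counts (0.971, 3.5, 3.33 and 1.5 CPM). Every neonatal library was above every adult library. The log2 fold change was 1.77 ± 0.41 with edgeR's adjusted p at 0.00204 (1.86 and 0.00109 with no filter on counts), and its size is imprecise because adult libraries 1 and 4 are at or under 3 counts, the most that a count of 0 can hide. Such limits and the intervals below cover counting error only, since the reads carry no molecular identifiers.

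The 5p arm was the minor one at both ages. Its share of miR-126a counts was 4.68%, 7.6%, 7.35% and 4.69% in neonatal libraries 1 to 4. Adult libraries 1 to 4 gave 2.08%, 4.55%, 6.93% and 2.7%. Pooled counts gave 6.05% (95% Wilson interval 4.9% to 7.46%) of 1338 neonatal and 4.32% (2.68% to 6.91%) of 370 adult counts. The groups overlapped. The log2 ratio of 5p to 3p was higher in neonatal libraries by 0.51 on average, in 4 of 4 same-numbered pairs. It did not pass by a two-sided exact permutation test (p = 0.2, adjusted p = 0.333 over 5 ratios, n = 4 per group).

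miR-143-3p, of smooth muscle and other stromal cells, was the second most abundant member. It had 96, 141, 124 and 110 counts in neonatal libraries 1 to 4 (51.2, 53.8, 54.0 and 39.3 CPM) and 21, 62, 20 and 45 counts in adult ones (20.4, 43.4, 9.5 and 22.6 CPM). Adult library 2 was above neonatal library 4, so the groups overlapped on the TMM scale, while with library totals they did not. Means were 49.6 ± 6.95 and 24.0 ± 14.1 CPM. The log2 fold change of 1.07 ± 0.35 passed by edgeR (adjusted p = 0.0165), but the call was lost without adult library 1 (0.97, adjusted p = 0.0649) or adult library 4 (1.07, adjusted p = 0.0628). Over all alternatives edgeR, limma-voom and DESeq2 gave adjusted p of 1.58e-05 to 0.159.

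The adult libraries varied in miR-143-3p with a coefficient of variation of 59.1%, where counting error alone gives 16.4%. The fold change of miR-143-3p also varied with the libraries used. Libraries 1 and 3 alone gave a log2 fold change of 2.06 ± 0.35 (edgeR's adjusted p = 1.58e-05), and libraries 2 and 4 alone 0.50 ± 0.30 (adjusted p = 0.159), with the call lost in the latter. The same split gave 1.64 and 0.52 for miR-199a-3p, again with no call in libraries 2 and 4 (adjusted p = 0.186), and 1.58 and 1.07 for miR-126a-3p, called in both. For miR-126a-5p it gave 1.8 and 1.83. What a library number stands for is not given, whether the 2 subsets differ was not tested, and the split was chosen after the data were seen.

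miR-145a-5p, whose hairpin neighbours that of miR-143, was almost absent. Neonatal libraries 1 to 4 had 1, 2, 0 and 1 counts and adult ones 1, 1, 0 and 2 counts. Summed counts were 4 in each group. On the TMM scale the ratio of neonatal to adult rates was 0.684, with a 95% exact counting interval of 0.127 to 3.67. At this depth a change of miR-145a-5p like that of miR-143-3p could be neither seen nor set aside. Beside the miR-143-3p reads there were few of miR-145a-5p. Ligation in library making favours some sequences over others, so the levels of different miRNAs are not directly comparable. The cell source of the miR-143-3p reads was not tested.

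miR-199a-3p, of fibroblasts, had 52, 58, 57 and 65 counts in neonatal libraries 1 to 4 (27.7, 22.1, 24.8 and 23.2 CPM) and 13, 13, 15 and 41 in adult ones (12.6, 9.09, 7.13 and 20.6 CPM). Adult library 4 stood just under the lowest neonatal library and the other 3 adult libraries well below. The means of 24.5 ± 2.44 and 12.4 ± 5.93 CPM gave a log2 fold change of 0.97 ± 0.30 (edgeR's adjusted p = 0.0132). It was 1.44 without adult library 4 (adjusted p = 0.00156), within a range of edgeR, limma-voom and DESeq2 adjusted p of 0.000659 to 0.186 over all alternatives. The neonatal libraries varied by 9.97%, no more than the 10.7% that counting the shared pool gives, and the adult ones by 48.0% against 18.1%.

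miR-199a-5p, the other arm of the miR-199a hairpins, had too few counts to test. Neonatal libraries 1 to 4 had 3, 6, 2 and 0 counts and adult libraries 6, 1, 2 and 9. The groups overlapped. Summed counts were 11 and 18. On the TMM scale the ratio of neonatal to adult rates was 0.418, with a 95% exact counting interval of 0.178 to 0.934. This interval leaves out the spread between libraries and depends on the scaling. With library totals the mean levels were 1.51 CPM (neonatal) and 2.42 CPM (adult), against 1.19 and 3.0 CPM with TMM. Without a filter on low counts edgeR gave an adjusted p of 0.287. In adult library 1 the 5p arm had 6 counts beside 13 of the 3p arm, and in neonatal library 4 it had 0 beside 65.

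In neonatal libraries the order of levels ran miR-126a-3p, miR-143-3p, miR-199a-3p, miR-126a-5p, miR-199a-5p and miR-145a-5p, and only the last 2 overlapped. In adult libraries the same first 3 led, and miR-143-3p and miR-199a-3p overlapped. Below them miR-199a-5p (0.7 to 5.82 CPM), miR-126a-5p (0.971 to 3.5 CPM) and miR-145a-5p (0 to 1 CPM) all overlapped with each other.

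Ratios of 2 miRNAs within a library do not depend on how libraries are scaled. Of 7 ratios listed, 5 had enough counts to test. The log2 ratio of endothelial miR-126a-3p to stromal miR-143-3p was 1.39 ± 0.38 (SD) in neonatal and 1.34 ± 0.62 in adult libraries. The difference of 0.05 did not pass by a two-sided exact permutation test (p = 0.886, adjusted p = 0.886, n = 4 per group). Leaving out 1 library at a time moved this difference between -0.15 and 0.34. The log2 ratio of miR-199a-3p to miR-143-3p was -1.01 ± 0.23 and -0.85 ± 0.93, a difference of -0.15 (exact permutation p = 0.8, adjusted p = 0.886). It moved between -0.60 and 0.09 with 1 library left out, so these libraries do not settle the sign of a shift between these miRNAs.

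Against miR-142a, a miRNA found across blood cells, with both arms summed, miR-126a-3p and miR-143-3p were compared; the other members were not. The log2 ratio of miR-126a-3p to miR-142a was -5.02, -5.61, -5.26 and -5.99 in neonatal libraries 1 to 4. In adult ones it was -7.85, -8.48, -8.42 and -8.3. The groups did not overlap, and the mean difference was 2.79. For miR-143-3p the mean difference was 2.74, again without overlap. Both reached the smallest p of an exact permutation test with 4 against 4 (two-sided, p = 0.0286), but with 5 ratios the adjusted p was 0.0714, so neither passed. Part of each difference was that of miR-142a itself, since miR-142a-5p fell by 1.66 on the log2 scale (edgeR's adjusted p = 0.000417) and miR-142a-3p by 1.34 (adjusted p = 0.00292, and 0.053 with library totals).

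**Figure D2:**
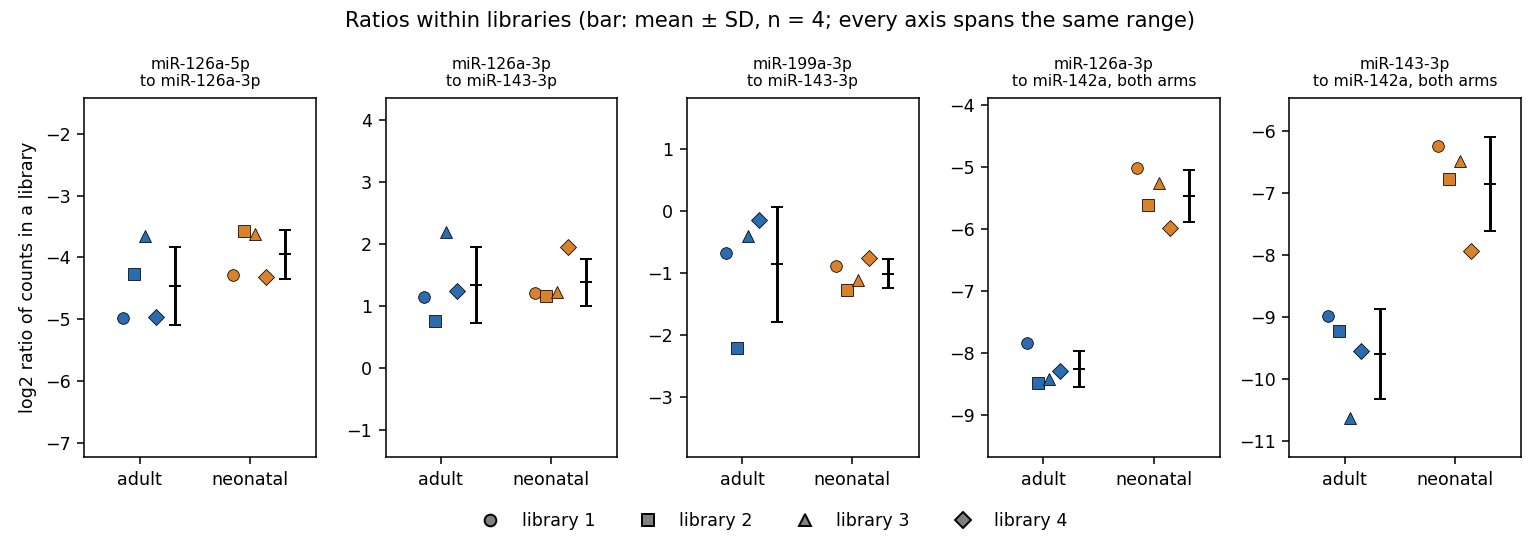
Log2 ratios of counts within each library for the 5 tested pairs, with marker shapes for library numbers and bars for the mean ± SD (n = 4). The first 3 panels, pairs of members, overlap between ages, and the last 2, members against miR-142a, stand apart by 2.79 and 2.74.

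Of 12 other miRNAs on the smooth muscle and stromal list 6 had enough counts, and 5 of them rose and none fell (29.1% of all tested miRNAs rose). Of the 6, 4 reached the filter's level in every library, miR-152-3p in 3 adult libraries and miR-199b-3p in 1. miR-100-5p, of a family that targets the growth kinase mTOR, had the smallest p: it rose 2.46-fold, from 32.8 to 81.4 CPM (SE of the log2 change 0.20, edgeR's adjusted p = 0.000115). The most abundant, miR-125b-5p, common in stromal and stem cells, rose from 50.7 to 130 CPM (1.37 ± 0.28, adjusted p = 0.00105). miR-152-3p, named after its values were seen as the 1 that did not pass, stood at 0.82 ± 0.42 (edgeR's adjusted p = 0.11) and passed with library totals. miR-199b-3p is among the 5, and its reads are those of miR-199a-3p. The untested ones included miR-199b-5p, with 24 counts in each group and mean levels of 2.45 (neonatal) and 3.77 CPM (adult), and miR-214-3p, made from the same Dnm3os transcript as miR-199a-2, with 26 neonatal and 16 adult counts in all, while miR-143-5p, miR-145b and miR-214-5p had no count after rounding in any library. None of the 3 other endothelial miRNAs listed had enough counts.

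miRNAs of other cell types moved in the same samples, and their part in the rise of the members was not tested. All 3 tested erythroid miRNAs of 5 rose, where 29.1% of all tested miRNAs rose. miR-486a-5p, of red cell precursors, had the smallest p (1.84 ± 0.31, edgeR's adjusted p = 0.00026) and miR-486b-5p the highest level. They share their sequence, so their calls are not independent. The summed level of the erythroid list was 308 to 774 CPM in neonatal and 120 to 251 CPM in adult libraries. Hepatocyte miR-122-5p rose by 2.08 ± 0.24 (edgeR's adjusted p = 1.31e-05), 1 of 3 tested on the liver and muscle list of 4, whose sum was 757 to 1596 and 249 to 408 CPM. Most of that sum was miR-122-5p, with means of 1200 CPM (neonatal) and 285 CPM (adult). The other 2 tested on that list did not pass: muscle miR-133a-3p (0.62 ± 0.49, edgeR's adjusted p = 0.285) and miR-1a-3p (0.39 ± 0.49, adjusted p = 0.511). The untested muscle miR-206-3p had 0 counts over the adult libraries and 4 over the neonatal ones, all in neonatal library 2. The platelet and myeloid miRNAs miR-223-3p and miR-223-5p, 0 of 2 with enough counts, summed to 3.48 to 8.53 CPM in neonatal and 2.85 to 9.09 CPM in adult libraries. The 2 arms of miR-126a, for comparison, summed to 125 to 160 and 46.6 to 76.9 CPM.

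Most lymphocyte miRNAs went the other way on the TMM scale. Of 6 on the pan-leukocyte and T cell list 5 fell and none rose, with a median of -1.36, while 5 fell and 1 rose with RLE scaling, and 3 fell and 1 rose with library totals. On the TMM scale 34.1% of all tested miRNAs fell. miR-181a-5p, named after its values were seen as the 1 that did not pass, stood at 0.21 ± 0.14 (edgeR's adjusted p = 0.193). It rose by 0.32 with RLE scaling (edgeR's adjusted p = 0.0493) and by 0.84 with library totals (adjusted p = 5.62e-05). miR-155-5p, which supports effector T cells, fell by 1.75 (± 0.15, edgeR's adjusted p = 6.98e-07), and miR-150-5p, of mature lymphocytes, by 1.37 (± 0.18). The sum of the list was 73278 to 76051 CPM in the neonatal and 144577 to 211458 CPM in the adult group. Most of it was miR-150-5p, with means of 54280 CPM (neonatal) and 140424 CPM (adult). All 4 tested members kept their rise with library totals, at 1.6 to 2.38, and with RLE scaling.

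**Figure D3:**
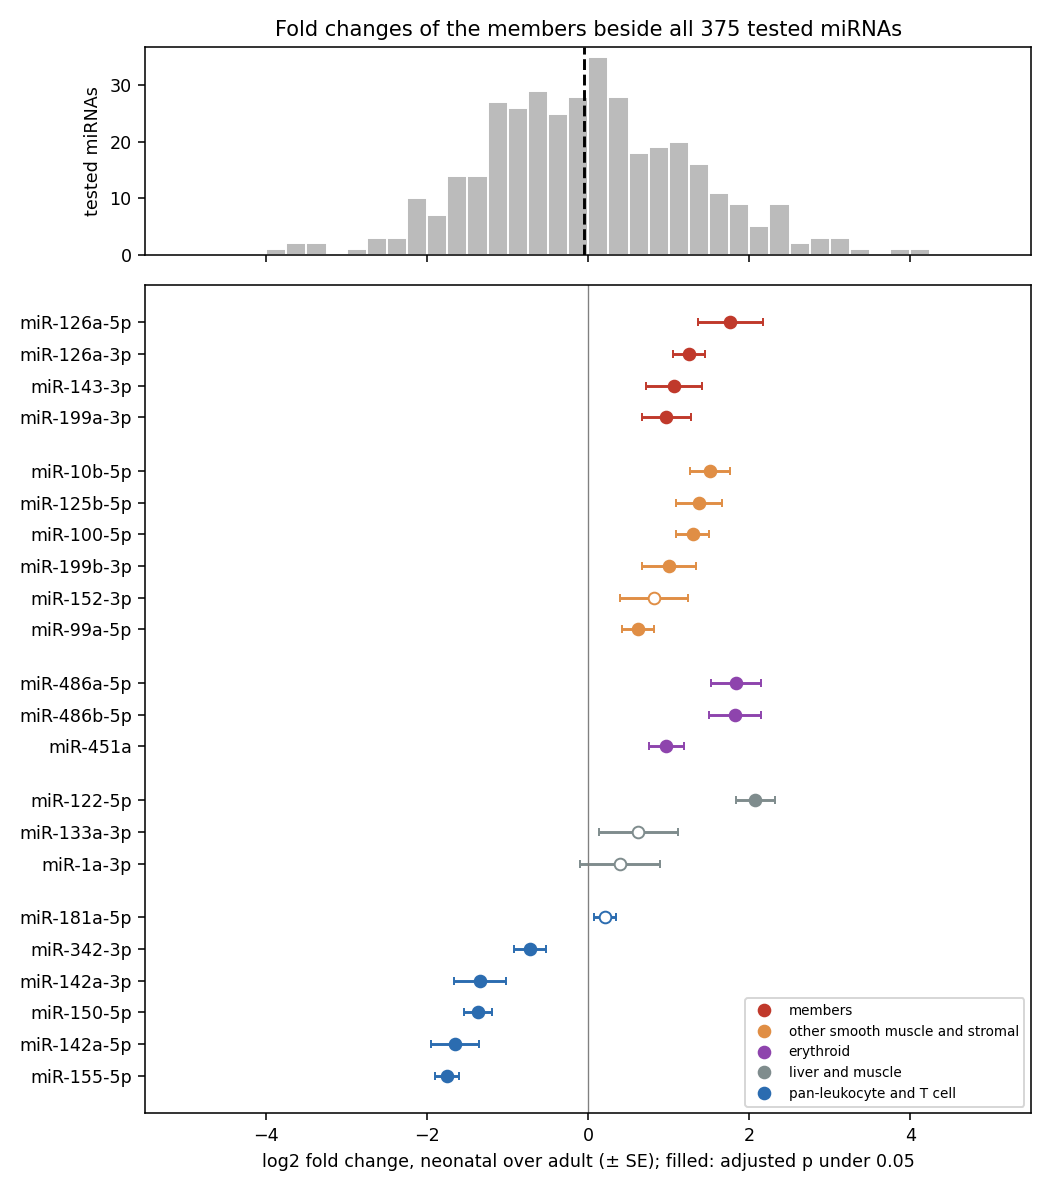
Log2 fold change, neonatal over adult, of the 4 tested members and of the tested miRNAs of the companion lists (points, ± SE), under a histogram of all 375 tested miRNAs whose dashed line is their median of -0.05. Filled points passed at an adjusted p under 0.05. Members lie between 0.97 and 1.77, beside most other stromal and erythroid miRNAs and away from those of the pan-leukocyte and T cell list.

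For each tested member, the most similar profiles over the 8 libraries were sought among the tested miRNAs that are not members. Likeness was the root mean square difference of log2 CPM after subtracting each mean. None of the 3 other endothelial miRNAs listed was tested, so none could be found here. For miR-126a-3p the nearest were miR-181d-5p (0.16), miR-128-3p (0.19) and miR-181b-5p (0.19). For miR-143-3p the nearest was miR-10b-5p (0.41), on the smooth muscle and stromal list, which rose by 1.51 ± 0.24 (edgeR's adjusted p = 0.00015). Next were miR-6989-3p (0.44) and miR-1306-3p (0.46). For miR-199a-3p the nearest was miR-199b-3p (0.06), the same reads, then miR-9-5p (0.29) and miR-194-2-3p (0.38). miR-126a-5p had miR-450b-3p (0.44), miR-542-3p (0.45) and miR-493-5p (0.49). These distances describe 8 libraries that share depth and scaling.

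**Figure D4:**
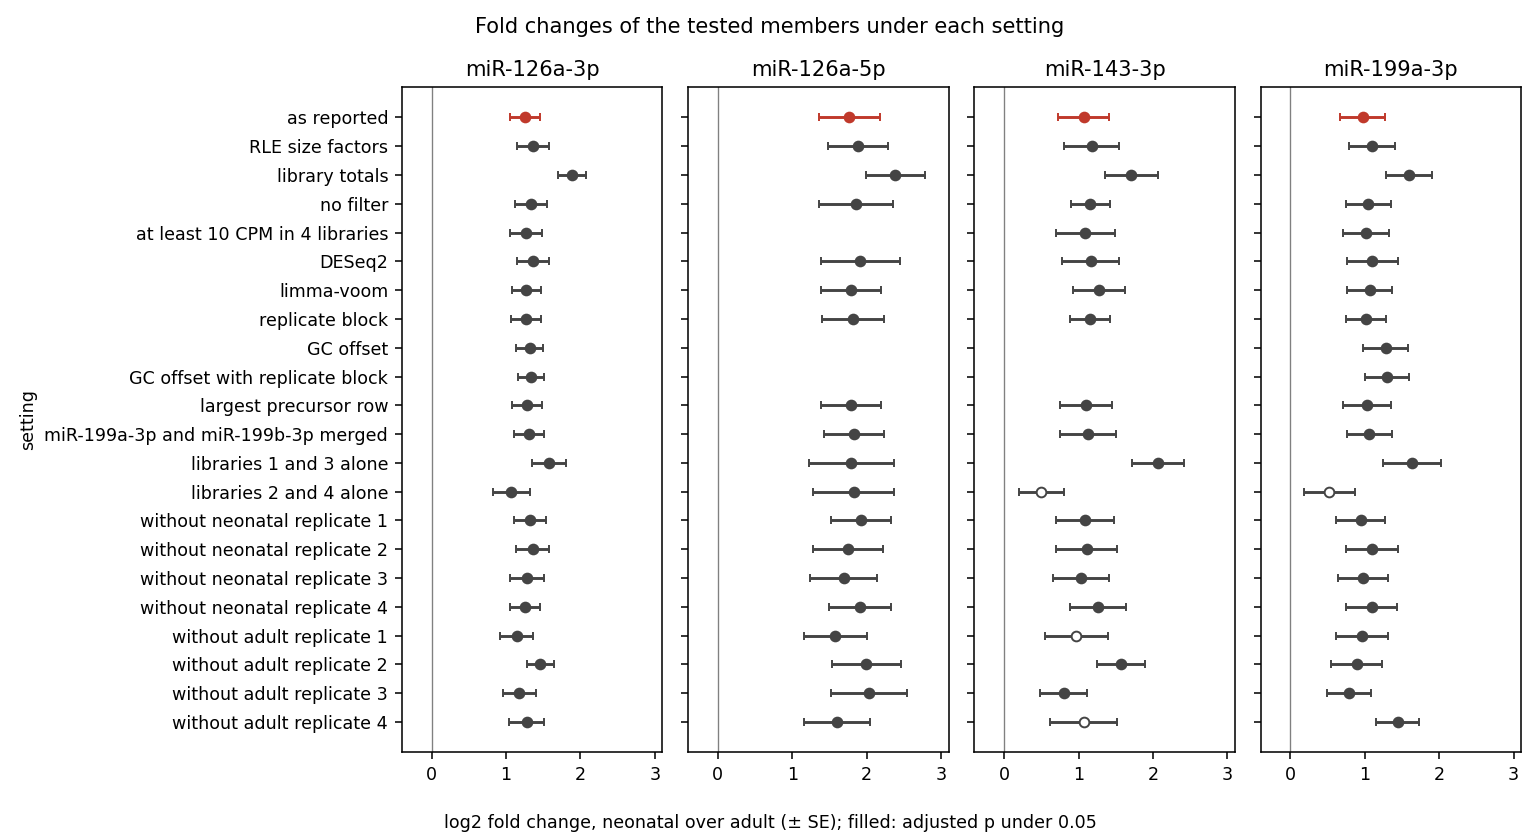
Log2 fold change of the 4 tested members (± SE) as reported and under each alternative, filled where the adjusted p was under 0.05. All points are above 0; the open ones are miR-143-3p without adult library 1 or 4 and in libraries 2 and 4 alone, and miR-199a-3p in libraries 2 and 4 alone.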

How the data were processed

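Estimated counts for each mature miRNA and hairpin, without normalization, were deposited by the authors. Per the submitters' processing notes the genome was mm10. The aligner, counter and miRNA release were not given in the sources used here. Rows of a mature miRNA were summed and rounded, and every column matched a library by name. Of the 1036 miRNAs with a count, filterByExpr (minimum count 10, total 15) kept 375. These were tested in edgeR 4.0.16 (R 4.3.3) by the robust quasi-likelihood F test with TMM scaling (factors 1.16 to 1.3 in neonatal, 0.788 to 0.812 in adult libraries) and age as the only term; SE is the fold change over the root of F. Within-library ratios, log2 of counts plus 0.5, were compared by exact permutation, adjusted over the 5 tested. Alternatives used limma 3.58.1 (voom), DESeq2 1.42.0, other scalings, filters, GC offsets and left-out libraries. The fit was tested on simulated data in which as many miRNAs rose as fell, so that test does not bear on the choice of scaling. Same-numbered libraries deviated together (r = 0.256 to 0.415, above 0.1 in 4 of 4 pairs), so the number was also fitted as a block. Differently numbered pairs gave r = 0.107 to 0.482 where both numbers were odd or both even, and -0.533 to -0.110 otherwise. Members, lists and tests were chosen with earlier results of these data known. Named from each list are its lowest p and its most abundant miRNA, with some others, and for each tested member the 3 nearest profiles. Hairpin positions are RefSeq's and transcripts GENCODE's (release M21). Positions and sequences of miR-143-3p and miR-145a-5p were not used here.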

Additional observations from a re-analysis of the deposited data

Results flagged for a closer look

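In the log2 ratio of miR-126a-3p to miR-143-3p, neonatal library 4 stood at 1.95, far above the other 3 neonatal libraries at 1.16 to 1.22; the gap divided by the group's whole range was 0.923. Its miR-126a-3p was the highest and its miR-143-3p the lowest of the neonatal group. That is above Dixon's 95% critical value for a group of 4, which chance passes in about 1 in 20 groups. The same check was made on the 6 members and the 5 tested ratios in each age group, and this was its only pass. Over that many groups, chance alone gives about 1 pass.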

How the results depend on the processing

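miR-126a-3p kept its direction and call in 21 of 21 alternatives (1.07 to 1.88) and miR-126a-5p in 18 of 18 (1.58 to 2.38); miR-126a-5p could not be fitted with at least 10 CPM in 4 libraries. The GC offset was fitted on the 314 of 375 miRNAs with a mature sequence (83.7%), which leaves out miR-126a-5p and miR-143-3p. miR-143-3p lost its call in libraries 2 and 4 alone (0.50) and without adult library 1 (0.97) or adult library 4 (1.07). It ranged from 0.80 to 1.57 with 1 library left out. miR-199a-3p lost its call in libraries 2 and 4 alone (0.52) and ranged from 0.79 to 1.44; the cause was not tested. With 2 libraries per group, edgeR rests on few degrees of freedom. The replicate block gave 1.27 for miR-126a-3p, 1.81 for miR-126a-5p, 1.15 for miR-143-3p and 1.02 for miR-199a-3p, and changed no call of a member. The count of changed miRNAs was 237, and 189 to 287 in the alternatives. The difference in the ratio of miR-126a-3p to miR-143-3p turned sign without neonatal library 4, adult library 1 or adult library 2 (-0.15 to 0.34 with 1 library left out), and that of miR-199a-3p to miR-143-3p without adult library 4 (0.0898; -0.60 to 0.0898 with 1 library left out). Depth limits miR-145a-5p and miR-199a-5p, at most 9 counts in any library.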
